A study of Rattus norvegicus with 35 samples.

Results

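Wnt proteins act on cells through Frizzled receptors and the co-receptors Lrp5 and Lrp6. Without a Wnt signal, a destruction complex built on axin and Apc lets the kinase Gsk3b mark β-catenin (Ctnnb1) for breakdown; with a signal, β-catenin builds up and switches on target genes, of which Axin2 is the classical feedback target. In the adult hippocampus the pathway is known for its part in the birth of dentate granule neurons and in synapse maintenance. The genes described here are regulators on this route: Tpbg, a membrane glycoprotein that dampens β-catenin signalling at the cell surface; Dkk3, a secreted member of the Dickkopf family; Lrp5 and Lrp6; Frat1 and Frat2, proteins that bind Gsk3 and hold it away from axin; Gsk3b; Axin2; and Ctnnb1.

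These 9 genes were taken by name from a table of counts of 15059 genes, and 8 of them were matched there. All 8 passed the filter on low counts, and Frat1 was not analysed here. Tpbg was chosen from its difference between sham and vehicle and Frat2 from its difference between raloxifene and vehicle, so these 2 differences are given as a description, with no p-value. They also enter the counts of members called in those contrasts, from which nothing is read. The same vehicle libraries are the reference of the other contrasts, so tests of Tpbg and Frat2 there are not independent of that choice. A wider list of 115 Wnt pathway genes, arranged by role and including the 9, had 97 genes matched and 93 tested.

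The measurements are RNA sequencing of whole hippocampus from female Sprague Dawley rats, in 35 libraries and 7 groups of 5. Animals were operated on at 6 months and, after a washout of 2 weeks, treated by daily intraperitoneal injection for 7 days. The sham group kept its ovaries; the other 6 groups were ovariectomised (OVX) and received vehicle, estradiol at 0.16 mg/kg, tamoxifen at 3.23 mg/kg, raloxifene at 9.68 mg/kg, exemestane at 0.16 mg/kg or anastrozole at 4.03 mg/kg. Tamoxifen and raloxifene are selective estrogen receptor modulators, and exemestane and anastrozole inhibit aromatase, the enzyme that makes estrogens from androgens. Vehicle is the reference of every comparison, so all 6 comparisons share its 5 libraries. The labels do not say whether sham animals were injected. They also tie no library to a named animal, so p-values measure the spread between these libraries. Levels are CPM, the counts of a gene scaled to a common library total, which compare libraries for 1 gene and not genes with each other, since gene length is not taken into account.

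The libraries fall into 2 kinds that the labels do not name. The authors' normalized table differs from the counts by a factor for each gene and library, and the first component of that factor holds 72.3% of its variance and splits 20 libraries (class A) from 15 (class B). The signal recognition particle RNA Rn7sl1 ranged as a share of counts from 4.47% to 6.49% among class A libraries, and in class B from 2.90% to 3.84%. By group, class B takes in raloxifene whole, exemestane with 4 libraries, tamoxifen with 3, anastrozole with 2 and vehicle with replicate 4, but no sham or estradiol library. The summed level of 4 neuron markers reached at most 4097 CPM in a class A library and at least 4366 CPM in any of class B, over a range of 3328 to 5314 CPM. The neuron sum was thus higher in class B. Lists lower in class B by their medians included CA1 pyramidal (703 CPM in A, 589 in B) and oligodendrocyte precursor markers (287 and 242). Endothelial markers, of which 2 of 5 were matched, were also lower (109.8 and 92.9). Among lists with higher medians in class B were interneuron (518 and 589), astrocyte (2063.5 and 2189) and CA3 and CA2 pyramidal markers (281 and 294). No raloxifene library is of class A, so its estimate with class rests on the class difference seen within vehicle, tamoxifen, exemestane and anastrozole, and the effects of raloxifene and of class cannot be fully told apart. Each comparison is therefore given from a model of group alone and from one with class as a term; what sets the classes was not tested. Libraries held 5.58 M to 12.09 M counts (M for mega), and the dentate granule and CA1, CA2 and CA3 pyramidal markers that define hippocampus were detected in every group. The vehicle group was high in oligodendrocyte markers, whose sum over 5 genes was 5497 to 6761 CPM there, above all libraries of estradiol (4811 to 5082), raloxifene (4575 to 5434) and anastrozole (4594 to 5205). Tamoxifen (4339 to 5783), exemestane (4303 to 5865) and sham (4435 to 7824) overlapped it. The part of these markers in the differences from vehicle was not tested.

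Sham replicate 1 stands apart from the other libraries. It held 90.8 CPM of Tcf7l2, a Wnt nuclear factor with a known high level in thalamus, against 8.78 to 15.4 CPM in the other 34 libraries, and 136 CPM of the glutamate transporter gene Slc17a6 against 10.7 to 29.7. The 7 measured genes of a thalamus and habenula list summed to 181 CPM there and to at most 85.4 CPM elsewhere. Slc17a6 is on that list, made up 136 CPM of the sum and was its only gene at the highest level of the 35 libraries. Zic1 ranked 2 of 35 there, Tnnt1 and Synpo2 ranked 3 and Rgs16 ranked 12. Prkcd (8.92 CPM, rank 29) and Ramp3 (3.12 CPM, rank 24) were not high. Of all 35 libraries it was the lowest in CA1 pyramidal (308 CPM), CA3 and CA2 pyramidal (227), dentate granule (197) and general neuron markers (3328), and the highest in oligodendrocyte (7824), oligodendrocyte precursor (323) and interneuron markers (677). The part of these markers in the sham results was not tested. In bulk tissue, fewer cells of a type and less RNA per cell cannot be told apart. The sham differences of Tpbg, Lrp5 and Dkk3 are given with and without this library. Sham levels and fold changes of the other members include it.

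The windows around the start sites of 3 members are shown because Tpbg and Frat2 carry the main patterns and Axin2 is the pathway's feedback target. They are RefSeq sequences of the rat assembly GRCr8, 250 bases before to 50 after the listed start, 5′ to 3′ on the gene's strand; the build behind the counts is not given in the sources used here. The Tpbg window is chr8:95673743-95674042 on the plus strand, that of Frat2 chr1:250605730-250606029 on the minus strand and that of Axin2 chr10:94398535-94398834 on the plus strand. The Axin2 window does not start at the outermost start of the gene. Capitals mark matches to either of the motifs searched on both strands: the TCF/LEF core, which was searched as CTTTGAA, also as CTTTGAT, further as CTTTGTA and last as CTTTGTT, and the estrogen response element half-site GGTCA, which reads TGACC on the other strand.
Tpbg: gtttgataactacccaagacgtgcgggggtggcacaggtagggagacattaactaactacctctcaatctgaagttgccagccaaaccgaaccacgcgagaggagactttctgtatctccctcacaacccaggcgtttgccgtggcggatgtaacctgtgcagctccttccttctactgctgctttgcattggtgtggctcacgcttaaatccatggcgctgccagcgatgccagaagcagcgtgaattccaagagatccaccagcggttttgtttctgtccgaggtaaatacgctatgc
Frat2: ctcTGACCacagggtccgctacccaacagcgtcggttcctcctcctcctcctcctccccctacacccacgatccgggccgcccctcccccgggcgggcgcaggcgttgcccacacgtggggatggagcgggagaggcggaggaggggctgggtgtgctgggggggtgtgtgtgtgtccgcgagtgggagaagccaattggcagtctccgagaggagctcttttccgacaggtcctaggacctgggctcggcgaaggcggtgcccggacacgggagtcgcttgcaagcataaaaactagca
Axin2: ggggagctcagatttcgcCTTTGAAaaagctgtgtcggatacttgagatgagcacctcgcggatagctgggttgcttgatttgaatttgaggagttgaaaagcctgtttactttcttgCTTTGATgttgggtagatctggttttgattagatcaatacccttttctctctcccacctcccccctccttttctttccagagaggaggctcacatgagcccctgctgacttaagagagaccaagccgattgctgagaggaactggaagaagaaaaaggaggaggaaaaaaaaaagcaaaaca

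Axin2 held 2 TCF/LEF cores, CTTTGAA at -232 and CTTTGAT at -132 bases from the start. Of 33469 RefSeq promoter windows of the same length, 17.1% held at least 1. The Frat2 window held 1 half-site, at -247, as did 40.5% of all windows at least once. The full element, GGTCA followed after any 3 bases by TGACC, was in none of the 3 windows and in 0.0269% of all; it contains the half-site. Tpbg held neither motif. The Frat2 window was rich in G and C at 67% and that of Axin2 lower at 45.7%, beside a median of 51.7% over all windows. Frat1 and Frat2 are neighbours in this assembly with 0 coding genes between them, and as close relatives their reads could be split unevenly by the counting, so the Frat2 level is uncertain to that extent.

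Tpbg was higher in sham than in ovariectomised animals given vehicle, the difference it was chosen for. Its level in the 5 sham libraries was 23.8, 12.2, 11.03, 13.4 and 8.69 CPM, and in vehicle 7.30, 7.75, 5.95, 5.92 and 5.75 CPM. Every sham library lay above every vehicle library, an arrangement that 0.715% of all genes tested shared. Group means were 13.8 ± 5.84 CPM in sham and 6.53 ± 0.923 CPM in vehicle (SD, n = 5). On the log2 scale the difference was 1.09 ± 0.21 (SE). Replicate 1, the library rich in Tcf7l2, was the highest of all 35. Without it the sham mean was 11.3 ± 2.02 CPM (SD, n = 4) and the log2 fold change was 0.79. The 4 libraries lay above all of vehicle. The share of all genes with that arrangement was not counted, and nothing is read from it. With class in the model the difference was 1.05 ± 0.21, and 0.75 when replicate 1 was also left out. No sham library is of class B, and the class difference of Tpbg, -0.19 ± 0.17, had an adjusted p of 0.376 (edgeR).

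After ovariectomy and treatment, group means of Tpbg lay between 7.00 CPM in raloxifene and 9.01 CPM in estradiol, and no contrast against vehicle passed the test. Estradiol libraries were at 8.14, 8.35, 11.96, 6.39 and 10.2 CPM, with 4 of 5 above the whole vehicle group. The estradiol mean of 9.01 ± 2.14 CPM (SD, n = 5) gave a log2 fold change of 0.46 ± 0.22 that did not pass (adjusted p = 0.528, edgeR), and with class it was 0.42 ± 0.22 (adjusted p = 0.513). Tamoxifen libraries ran from 5.94 to 9.62 CPM with a median of 7.91, and anastrozole libraries from 6.15 to 8.86 with a median of 8.14. Raloxifene libraries ran from 5.49 to 9.53 with a median of 6.11, and exemestane libraries from 6.03 to 9.06 with a median of 6.49. These 4 groups overlapped vehicle, with log2 fold changes between 0.10 for raloxifene and 0.27 for tamoxifen. In the order of the means, from sham through estradiol, tamoxifen, anastrozole, exemestane and raloxifene to vehicle, the step from sham to estradiol was the only one larger than the pooled SD of its 2 groups, and even there the ranges overlapped. Tpbg rests on 43 to 267 counts per library.

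**Figure D1:**
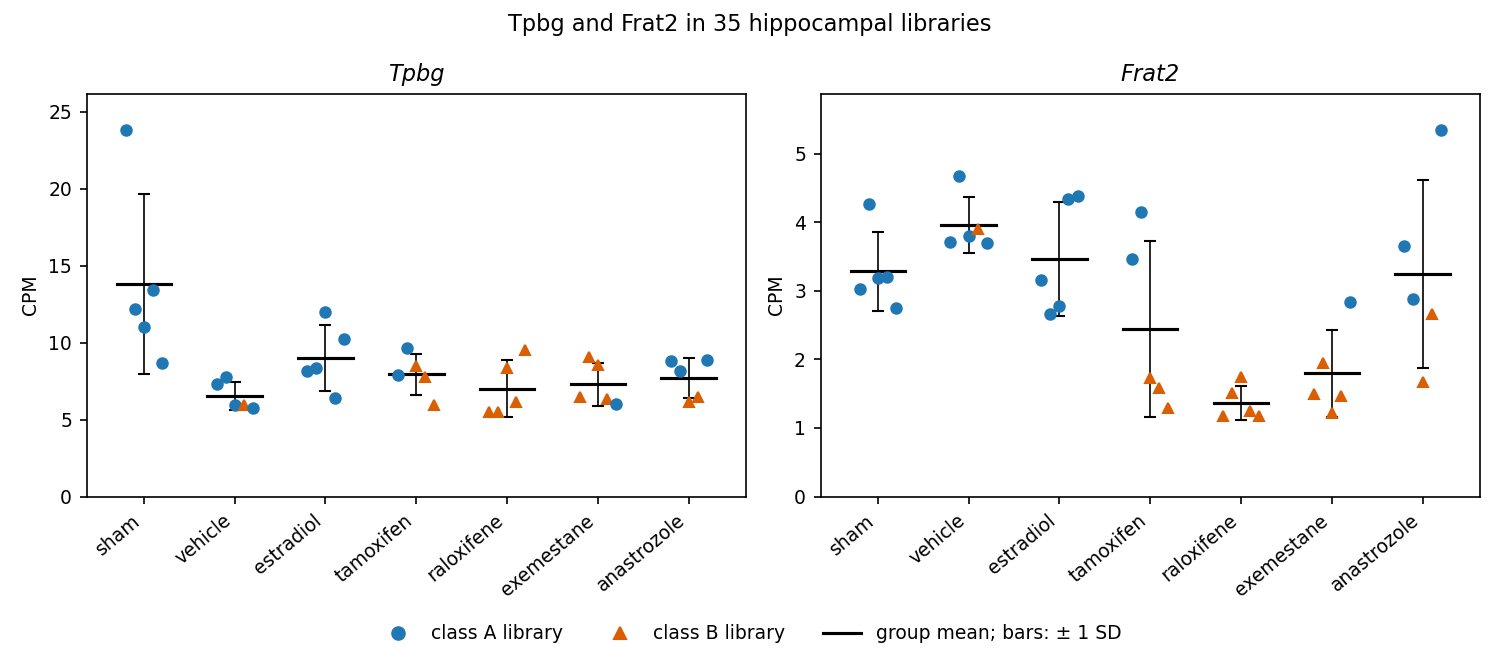
Level of Tpbg (left) and Frat2 (right) in CPM for each of the 35 libraries by group; circles are class A and triangles class B, black lines are group means and bars ± 1 SD (n = 5). Sham Tpbg sits above all vehicle libraries with replicate 1 at 23.8 CPM, and the Frat2 triangles sit at 1.18 to 2.67 CPM apart from vehicle replicate 4 at 3.90 CPM.

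Frat2 was low in raloxifene and in part of the other drug groups. Vehicle libraries were at 3.72, 4.68, 3.80, 3.90 and 3.69 CPM, and raloxifene libraries at 1.18, 1.51, 1.74, 1.25 and 1.18 CPM. Every raloxifene library lay below every vehicle library, as in 7.02% of all genes. The log2 fold change was -1.52 ± 0.29 with group alone and -0.90 ± 0.26 with class. With class and without vehicle replicate 4, the only class B library of vehicle, it was -0.50. With the authors' factors for each gene and library as offsets it was -0.81 ± 0.21.

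Frat2 is given here by class within the groups that hold both classes. The 2 class A tamoxifen libraries were at 3.47 and 4.15 CPM and the 3 of class B at 1.73, 1.58 and 1.29. Exemestane had 1.499, 1.95, 1.22 and 1.47 CPM in class B and 2.83 in its class A library. Anastrozole had 3.65, 2.88 and 5.34 CPM in class A and 1.67 and 2.67 in class B. In CPM, all class A libraries were above all class B ones in each of these 3 groups, with 1 to 4 libraries per class in a group. Vehicle replicate 4 of class B, at 3.90 CPM, instead lay inside the range of its own group. The share of all genes separated in this way was not counted, and nothing is read from it. Between classes, 51.9% of all genes were called with group in the model (edgeR). In the authors' normalized table class A stayed above class B in tamoxifen (21.4 and 24.4 against 15.3 to 21.02). There the classes overlapped in exemestane (18.1 in A, 14.9 to 24.4 in B) and anastrozole (17.65 to 31.5 in A, 17.1 and 28.3 in B). In vehicle the class B library, at 37.7, was above those of class A, at 23.3 to 32.4. With group in the model Frat2 was lower in class B by a log2 difference of -0.79 ± 0.17 (adjusted p = 0.000179, edgeR), an estimate that rests on vehicle and these 3 groups. Over all libraries the means were 3.60 ± 0.740 CPM in class A (SD, n = 20) and 1.72 ± 0.713 in class B (SD, n = 15).

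For exemestane, all 5 libraries were below all of vehicle, as in 1.46% of genes. The log2 fold change of -1.14 ± 0.28 passed with group alone (adjusted p = 0.0394, edgeR), against the vehicle values that also entered the choice of Frat2, and did not with class, at -0.71 ± 0.24 (adjusted p = 0.5004). That call held in 2 of the 10 fits that left out 1 library, those without exemestane replicate 5 or vehicle replicate 4; the other 8 gave folds from -1.16 to -1.01 with adjusted p from 0.0661 to 0.125. It was also lost with the authors' factors, at -0.61 (adjusted p = 0.0934), and in a fit of only the 2 groups (adjusted p = 0.0555). Tamoxifen stood at -0.70 ± 0.27 (adjusted p = 0.232), and at -0.95 without its replicate 2 (adjusted p = 0.0487); in class A libraries alone it was -0.07. Sham libraries, at 3.03, 4.27, 3.19, 3.19 and 2.75 CPM, and estradiol libraries, at 3.16, 2.66, 2.78, 4.34 and 4.38 CPM, overlapped vehicle. Their log2 fold changes of -0.28 ± 0.26 and -0.18 ± 0.27 and that of anastrozole, -0.31 ± 0.26, did not pass (adjusted p of 0.941, 0.826 and 0.9999, edgeR). In the order of group means no neighbours differed by more than their pooled SD. Counts of Frat2 were 9 to 41 per library, so counting error limits single libraries.

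**Figure D2:**
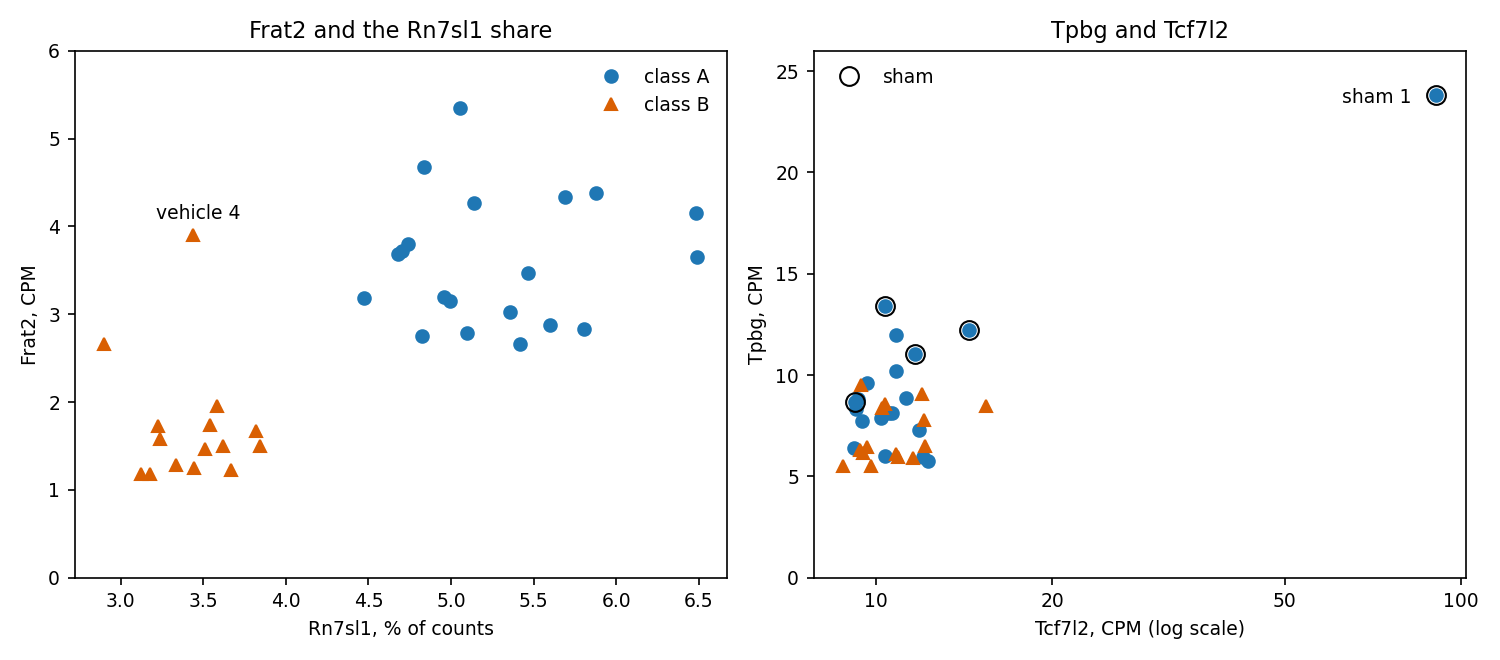
Left, Frat2 in CPM against the share of counts taken by Rn7sl1 in percent for each library, with class A as circles and class B as triangles; right, Tpbg in CPM against Tcf7l2 in CPM on a log axis, with sham libraries ringed. Class B libraries, at 2.90% to 3.84% Rn7sl1, lie low in Frat2 except vehicle replicate 4, and sham replicate 1 lies alone at 90.8 CPM of Tcf7l2 and 23.8 CPM of Tpbg.

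Of the co-receptors, Lrp5 varied between libraries more than Lrp6. It also had fewer counts, with a median of 122 per library against 587, and the part of counting error was not tested. Lrp5 in vehicle was at 14.2, 17.4, 12.5, 13.9 and 16.4 CPM, and in estradiol at 18.6, 20.4, 16.7, 19.8 and 21.03 CPM. Of the estradiol libraries 4 lay above the whole vehicle group; the log2 fold change of 0.37 ± 0.16 did not pass (adjusted p = 0.486, edgeR), nor did 0.29 ± 0.13 with class (adjusted p = 0.423). Sham libraries were at 25.1, 17.1, 17.3, 17.2 and 16.4 CPM, and the highest is replicate 1. The sham difference of 0.32 ± 0.16 went to 0.18 without that library. Lrp5 was lower in class B by -0.41 ± 0.10 (adjusted p = 0.000932): in tamoxifen, class A libraries held 17.6 and 20.7 CPM and class B libraries 9.71, 10.3 and 13.8. The raloxifene fold of -0.23 ± 0.16 became 0.10 ± 0.15 with class, and that of exemestane went from -0.22 ± 0.16 to 0.02 ± 0.15, so their sign turned; neither passed. Lrp6 was the flattest member, with group means from 71.3 CPM in estradiol to 76.7 CPM in anastrozole and library values from 57.9 to 82.3. Its log2 fold changes against vehicle lay between -0.03 and 0.08 with group alone, and it was higher in class B by 0.16 ± 0.049 (adjusted p = 0.00668).

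Dkk3 differed little between treatments. Its group means ran from 266 CPM in vehicle to 275 CPM in tamoxifen, with sham lower at 238 ± 45.2 CPM (SD, n = 5). The sham libraries were at 162, 241, 276, 268 and 245 CPM, and replicate 1 was the lowest of all 35, the next lowest being 236 CPM. Without it the sham mean was 258 ± 17.2 CPM (SD, n = 4) and the log2 fold change went from -0.16 to -0.05. Dkk3 did not pass between classes (0.09 ± 0.066, adjusted p = 0.249, edgeR).

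Gsk3b, the kinase that Frat proteins bind, was highest in raloxifene and next in exemestane. Vehicle libraries were at 101, 98.1, 95.1, 103 and 92.3 CPM, raloxifene libraries at 116, 112, 119, 122 and 125, and exemestane libraries at 116, 105, 115, 109.5 and 108. Both drug groups lay wholly above vehicle, as 11% of all genes did for raloxifene and 1.53% for exemestane. The raloxifene difference was 0.28 ± 0.065 on the log2 scale, and 0.13 ± 0.056 with class. The exemestane difference was 0.18 ± 0.065 (adjusted p = 0.0723, edgeR), and with class 0.07 ± 0.053 (adjusted p = 0.835). It passed without exemestane replicate 5 (adjusted p = 0.0431) or vehicle replicate 4 (adjusted p = 0.0364), and by DESeq2 at 0.19 (adjusted p = 0.0391). In tamoxifen the class A libraries were at 104 and 91.4 CPM and those of class B at 124, 114 and 115. Gsk3b was higher in class B by 0.18 ± 0.038 (adjusted p = 0.000128). Across 35 libraries the correlation of log2 CPM between Gsk3b and Frat2 was -0.873 (Pearson), and within classes it was -0.453 in A and -0.681 in B; these libraries share class, depth and the scaling, so this is a description.

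Axin2, the feedback target, was lowest in tamoxifen. Its libraries there were at 26, 25.4, 21.3, 24.01 and 22.4 CPM, against 27.7, 31.7, 28.2, 29.7 and 26.7 in vehicle. All 5 lay below all of vehicle, as in 0.798% of genes. The log2 fold change of -0.27 ± 0.084 did not pass (adjusted p = 0.167, edgeR), nor with class, at -0.23 ± 0.083 (adjusted p = 0.388); among class A libraries alone it was -0.15. The other 5 groups had means from 26.9 ± 3.26 CPM in exemestane to 29.7 ± 2.91 in sham (SD, n = 5), all overlapping vehicle. Axin2 did not pass between classes (-0.11 ± 0.062, adjusted p = 0.147).

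Ctnnb1 was lower in raloxifene. Raloxifene libraries held 162, 221, 226, 220.4 and 218 CPM and vehicle libraries 241, 264, 237, 254 and 235, with no overlap, as in 7.02% of all genes. The difference was -0.23 ± 0.070 on the log2 scale with group alone, -0.13 ± 0.070 with class and -0.14 without raloxifene replicate 1, which is the lowest of all 35 libraries. Exemestane libraries were at 228, 213, 215, 225 and 252 CPM, the last of class A; their fold of -0.12 ± 0.070 did not pass (adjusted p = 0.239, edgeR). Ctnnb1 was lower in class B by -0.13 ± 0.046 (adjusted p = 0.0188). Sham, estradiol and anastrozole means lay between 249.9 and 255.5 CPM, within the spread of vehicle at 246 ± 12.5 CPM (SD, n = 5).

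**Figure D3:**
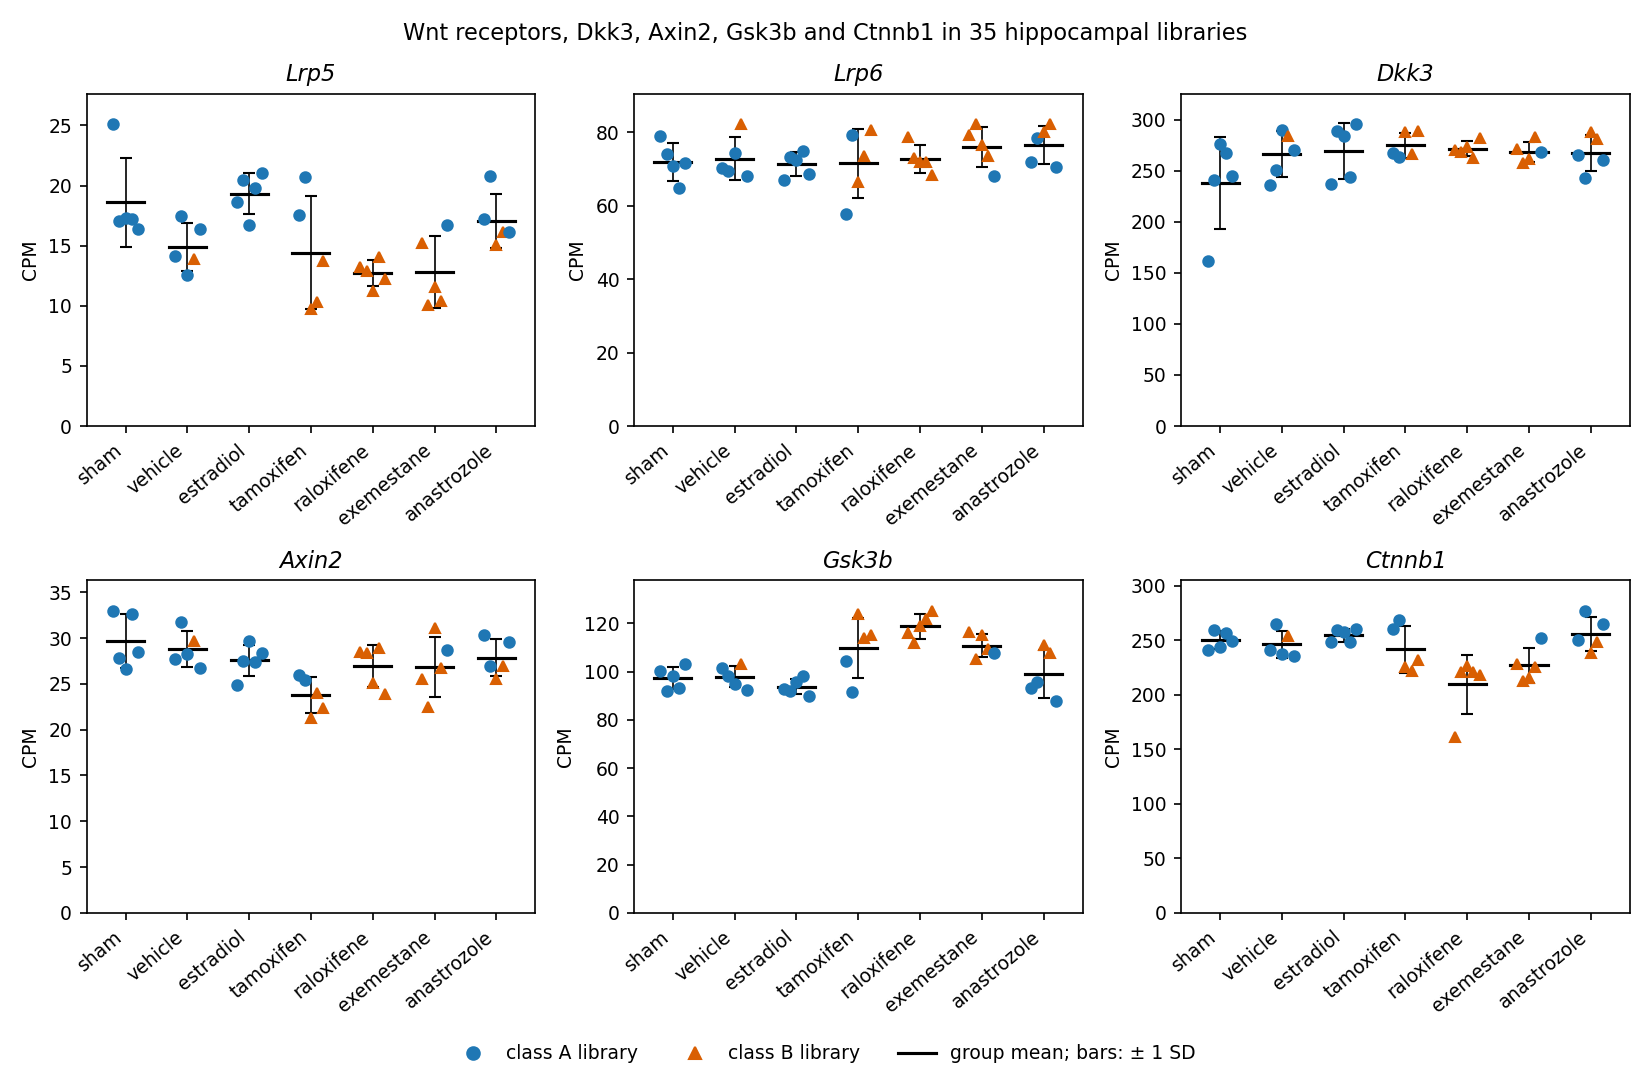
Level of Lrp5, Lrp6, Dkk3, Axin2, Gsk3b and Ctnnb1 in CPM for each library by group, with class A as circles, class B as triangles, group means as lines and ± 1 SD as bars (n = 5). By their means, class B libraries sit lower than class A for Lrp5 and higher for Gsk3b, and the classes overlap for both. The tamoxifen libraries of Axin2, at 21.3 to 26 CPM, sit below all of vehicle.

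Counted over the 8 members with group alone, edgeR called 3 for raloxifene against vehicle (Frat2 and Ctnnb1 lower, Gsk3b higher), beside 24.8% of all genes tested; the raloxifene contrast chose Frat2 and nothing is read from this count. The Ctnnb1 call was lost without raloxifene replicate 1 or vehicle replicate 2 and with the authors' factors, at a fold of -0.17. For exemestane 1 of 8 was called (Frat2), beside 6.51% of all genes. For sham, estradiol, tamoxifen and anastrozole the count of members was 0, beside 0%, 0.00694%, 0% and 0% of all genes. These comparisons had 2, 2, 3 and 0 members and 981, 1316, 2365 and 414 genes at an unadjusted p under 0.05; by DESeq2 the calls over all genes were 12, 16, 83 and 1. The test of any difference among the 7 groups called 5 members (Tpbg, Frat2, Gsk3b, Lrp5 and Ctnnb1), beside 37.0% of genes; it contains the contrasts that chose Tpbg and Frat2.

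With class as a term the member counts changed. None was called for raloxifene, exemestane, estradiol, tamoxifen or anastrozole (edgeR; 0.00694%, 0%, 0.298%, 0% and 0% of all genes), with 2, 1, 1, 2 and 1 members at an unadjusted p under 0.05. Sham had 1 of 8, Tpbg, beside 0.0416%; this is the contrast that chose it, and nothing is read from the count. The test of any difference called 0 of 8 beside 0.0278%, with 2 members at an unadjusted p under 0.05. Between classes 5 of 8 were called, beside 51.9% of all genes: Frat2, Lrp5 and Ctnnb1 lower in class B, and Gsk3b and Lrp6 higher. Across all 48 neighbouring pairs in the members' orders of group means, 4 differed by more than the pooled SD and 0 had ranges that did not overlap.

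**Figure D4:**
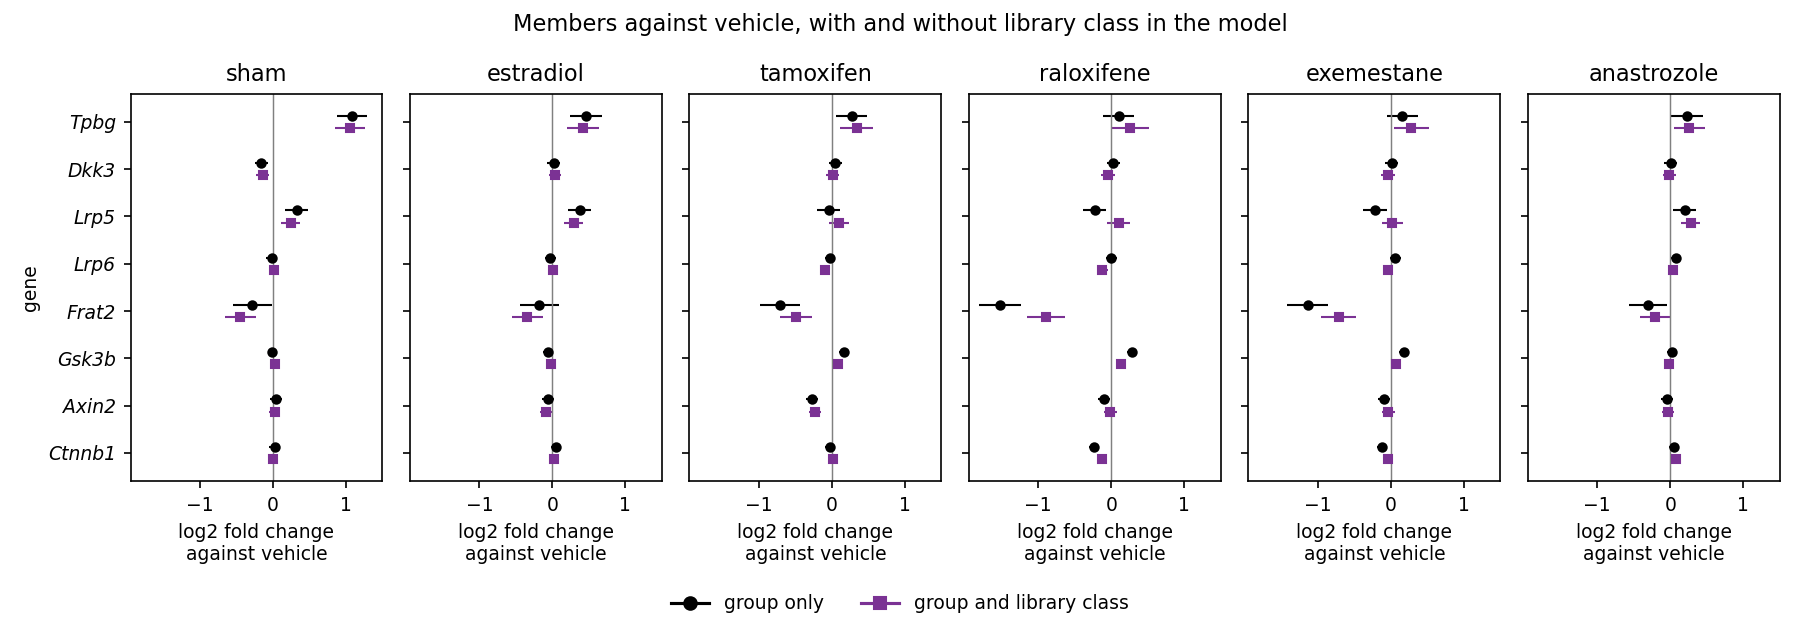
Log2 fold change against vehicle (x axis) with its standard error for the 8 members (y axis) in the 6 comparisons, from the model of group alone (black circles) and with library class as a term (purple squares). The sham difference of Tpbg is alike in both, 1.09 and 1.05, while the raloxifene difference of Frat2 goes from -1.52 to -0.90.

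Over the wider pathway, raloxifene against vehicle with group alone called 22 of 93 genes, 23.7% beside 24.8% of all genes. Of these 22, 3 were higher and 19 lower, beside 1929 higher and 1639 lower among all genes. The median log2 fold change of the list was -0.12 and that of all genes -0.02. Higher were Csnk1a1, a casein kinase that primes β-catenin (0.31 ± 0.081), Pygo1, a nuclear partner of β-catenin (0.29 ± 0.070), and Gsk3b. The largest falls beside Frat2 were those of Lgr6, a receptor for R-spondins (-1.0 ± 0.34), the receptor Fzd2 (-0.61 ± 0.21) and the co-receptor Ptk7 (-0.53 ± 0.18). By role, the destruction complex and its regulators had 7 of 15 called, nuclear factors 6 of 16, the planar polarity branch 4 of 9, receptors 3 of 16, receptor turnover 2 of 7 and target genes 1 of 12. Ligands had 0 of 13 and secreted and membrane inhibitors 0 of 12, with 2 and 0 at an unadjusted p under 0.05. With class 0 of 93 were called, with 7 at an unadjusted p under 0.05, and the list's median was -0.03. Without raloxifene replicate 1 or 5, or vehicle replicate 2, 3 or 5, the count with group alone was 13, 11, 12, 11 and 14.

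Exemestane called 6 of 93, or 6.45% beside 6.51% of all genes: Csnk1a1 (0.28 ± 0.081) and Pygo1 (0.27 ± 0.070) were higher, and Frat2, the cadherin Celsr1 (-0.44 ± 0.13), the corepressor Tle3 (-0.26 ± 0.083) and the kinase Gsk3a (-0.23 ± 0.065) lower. That count was 25 without exemestane replicate 5, its only class A library, 16 without vehicle replicate 4, 0 without any 1 of the other 8 libraries and 0 with class. Tamoxifen called 0 of 93 (16 at an unadjusted p under 0.05; 1 by DESeq2) and 7 without its replicate 2. All 12 target genes, a list that includes Axin2, had estimates below vehicle in tamoxifen (median -0.19, beside -0.005 over all genes) and in exemestane (median -0.16, beside -0.01), with 0 called in either; with class 10 of 12 and 11 of 12 were below, with medians of -0.13 and -0.06. Estimates also lay below the same vehicle libraries for 11 of 12 in anastrozole (median -0.09), 9 of 12 in estradiol (-0.06) and 9 of 12 in raloxifene (-0.12), and for 4 of 12 in sham (0.05). With class these were 10, 10, 6 and 7 of 12. The sham figures include sham replicate 1. In that library the target genes Axin2, Lef1, Lgr5, Nkd1 and Rnf43 had their highest level of the 35 libraries, and Apcdd1 its lowest. No figure for the target genes without it is given, so nothing is read from the sham median. Sham, estradiol and anastrozole called 0 of 93, with 7, 6 and 3 at an unadjusted p under 0.05; by DESeq2 the counts were 1, 0 and 0.

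**Figure D5:**
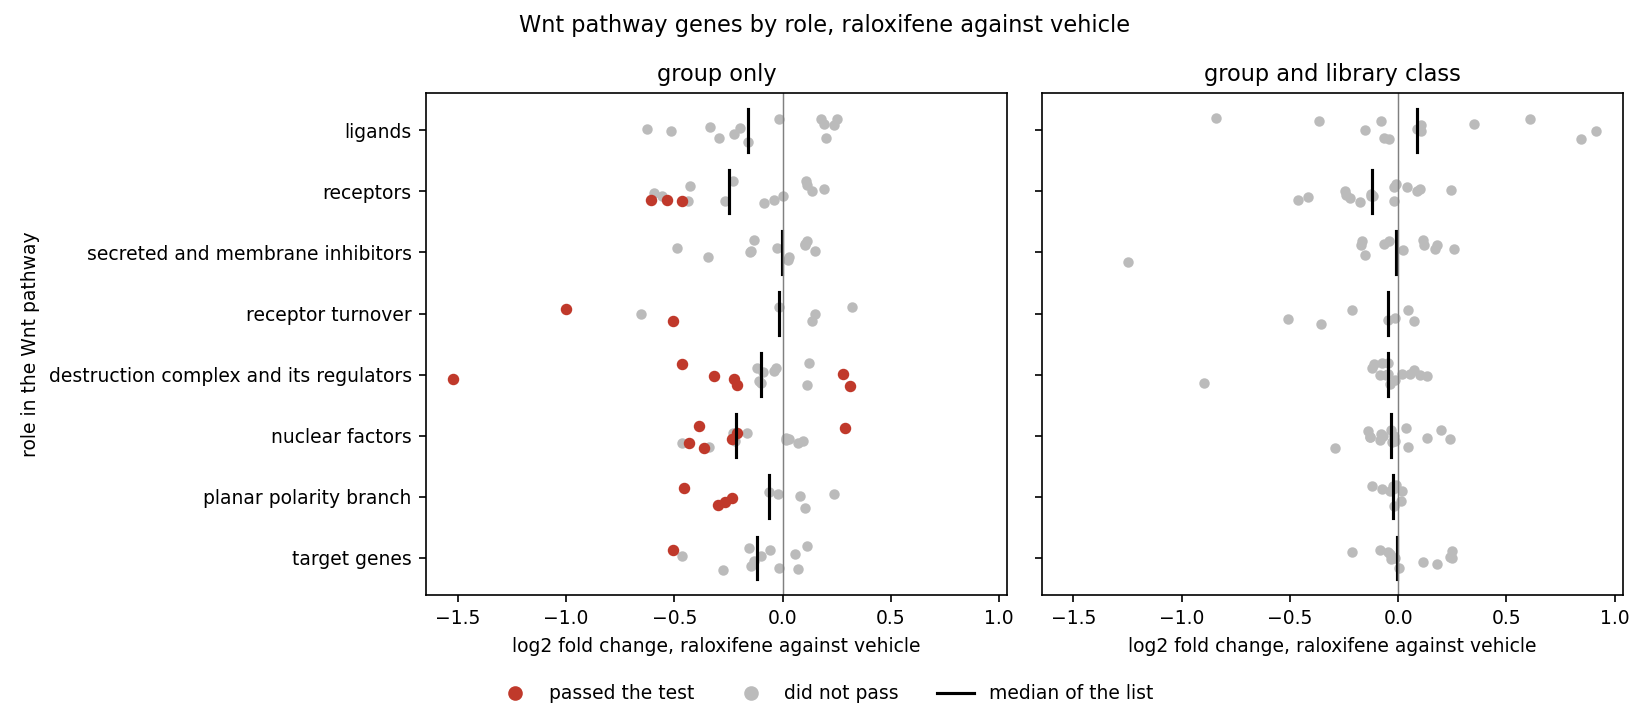
Log2 fold change of Wnt pathway genes in raloxifene against vehicle (x axis) by role (y axis), from the model of group alone (left) and with library class (right); red points passed the test, grey did not, black lines are list medians, and a gene with 2 roles is drawn in both. On the left 22 of 93 genes are red and on the right none is.

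Between classes, 48 of the 93 genes were called (51.6% beside 51.9% of all genes). Of these, 36 were lower and 12 higher in class B, beside 3796 lower and 3677 higher among all genes. The list's median was -0.14 beside -0.01 over all genes. The largest differences were lower levels of the receptor Fzd5 (-0.92 ± 0.22) and the ligands Wnt10b (-0.83 ± 0.23) and Wnt5b (-0.80 ± 0.25), followed by Frat2. Higher were the receptor Fzd6 (0.49 ± 0.19), Daam1 of the planar polarity branch (0.33 ± 0.044), the R-spondin Rspo3 (0.32 ± 0.090) and Amer1, a membrane anchor of the destruction complex (0.31 ± 0.11). The destruction complex and its regulators had 12 of 15 called, and secreted and membrane inhibitors, the list of Tpbg and Dkk3, 1 of 12.

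The genes whose log2 CPM most resembled Tpbg over the 35 libraries, among 12602 compared, were Tmem132c (Pearson r = 0.746), Rasgrp2 (0.739), Baiap3 (0.729), Hcn4 (0.715) and Resp18 (0.700). Without sham replicate 1 these values were 0.582, 0.555, 0.490, 0.513 and 0.477; Baiap3, for example, was at 83.3 CPM in that library and at a mean of 9.82 CPM in vehicle. The genes most like Frat2 were Bcar1 (0.898), Cenpb (0.892), Bckdha (0.891), Rpl41 (0.891) and Tnrc18 (0.884). Within class A these fell to between 0.312 and 0.431, and within class B they lay between 0.645 and 0.845. The libraries share class and depth, so these likenesses are descriptions only.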

How the data were processed

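Whole hippocampus RNA was made into stranded poly(A) libraries and sequenced as 100 bp pairs, per the labels. The authors deposited estimated counts per gene, that is expected counts,, made with Salmon per the submitters' processing notes, and a normalized table whose values are a signal that the notes tie to DESeq2; versions, genome build and annotation are not given in the sources used here. Counts were rounded, and library totals were 5.58 M at the lowest and 12.09 M at the highest (median 8.01 M; M for mega), which limits precision for genes at few counts such as Frat2. Of 15059 genes, 14411 passed edgeR's filter by expression. edgeR 4.0.16 in R 4.3.3 was used for the quasi-likelihood test with TMM scaling on all 35 libraries, with Benjamini-Hochberg adjustment over all genes tested and a threshold of 0.05; levels are CPM on TMM-scaled totals. The test with group alone was tried on simulated data with known changes. Those data held no library class, so the trial cannot show how class affects the calls.

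The normalized table was used for the library classes and, as an alternative, as offsets. Alternatives were class as a term, DESeq2 1.42.0, RLE scaling, no filter, the authors' factors, only the 2 groups compared, class A libraries only, and leaving out each library. The members and gene lists were chosen with earlier results of these data known. Named were the members throughout and, of called Wnt genes in each comparison, those that moved most, up to 4 upward and 4 downward; sham replicate 1 and its genes were singled out after their values were seen. The 5 genes most like Tpbg and the 5 most like Frat2 are named, where likeness is the Pearson correlation of log2 CPM over genes with a mean of at least 1 CPM. Promoter windows are RefSeq's, searched for exact motifs on both strands. Of the gene symbols, 13091 matched RefSeq, and 1132 entries have an Ensembl identifier only.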

Additional observations from a re-analysis of the deposited data

Results flagged for a closer look

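Values of 63 groups of 5 libraries, among them those of Tcf7l2, were screened for a library far from the other 4, and 5 stood out. Chance alone marks about 1 in 20, but Tcf7l2 was screened after its level in sham replicate 1 was seen. Nothing is therefore read from the count of 5 beside that rate. Frat2 was highest in vehicle replicate 2 at 4.68 CPM, the other 4 vehicle libraries lying between 3.69 and 3.90 CPM. Lrp5 was highest in sham replicate 1 at 25.1 CPM, against 16.4 to 17.3 CPM in the rest of sham. Ctnnb1 was lowest in raloxifene replicate 1 at 162 CPM (161.5), against 218 to 226 CPM. Tcf7l2 was highest in sham replicate 1 at 90.8 CPM, against 9.21 to 14.4 CPM, and lowest in vehicle replicate 2 at 9.46 CPM, against 11.6 to 12.3 CPM. What sets these libraries apart was not tested.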

How the results depend on the processing

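The number of Wnt pathway genes called out of 93 moved with several choices, and no member's called direction reversed. With library class as a term the count went from 0 to 1 for sham, from 22 to 0 for raloxifene, from 6 to 0 for exemestane and from 31 to 0 for any difference among the 7 groups. With the authors' factors it was 1 for tamoxifen, 7 for raloxifene, 0 for exemestane and 13 for any difference. DESeq2 gave 1 for sham, 1 for tamoxifen and 13 for exemestane, and a fit of only the 2 groups gave 0 for exemestane. Leaving out 1 library at a time gave 0 to 1 for sham, 0 to 7 for tamoxifen, 11 to 26 for raloxifene, 0 to 25 for exemestane and 24 to 37 for any difference; estradiol and anastrozole stayed at 0. With class and 1 library left out, sham gave 0 to 1, with 0 in 8 of the 10 fits. RLE scaling and no filter changed no call among the 48 member fold changes. Leaving out 1 library with group alone gave 480 member fold changes, among which 5 calls were gained and 10 lost. Class A libraries alone could not be fitted for raloxifene or exemestane, which have fewer than 2 of them. The cause of these changes was not tested. Depth limits Frat2 most, at 9 to 41 counts per library, and Tpbg at 43 to 267. No paired analysis was possible because the labels give the libraries no shared replicate numbers.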

Other observations

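In sham replicate 1, 11 of the 93 Wnt genes tested had their highest level of the 35 libraries and 14 their lowest, 11.8% and 15.1%, beside 7.93% and 9.06% of all genes. Those at their highest included Tpbg, Lrp5, Axin2, Tcf7l2, the nuclear factor Lef1 (13.9 CPM), the R-spondin receptor Lgr5 (7.67 CPM) and the receptor Fzd1 (31.6 CPM). Those at their lowest included Dkk3, the ligand Wnt2 (4.90 CPM) and the R-spondins Rspo2 (45.0 CPM) and Rspo3 (10.3 CPM). These genes were named after their values were seen.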
